A study of Mus musculus with 8 samples.

Results

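Jmjd1c knockout (KO) in activated splenic B cells was measured in 4 of the 8 RNA-seq libraries of the series, namely the 2 libraries titled PanB_KO and the 2 titled PanB_WT. All 4 come from the spleen of C57BL/6 mice, where B cells were enriched on streptavidin beads through a biotin-linked pan-B reagent, with stimulation in vitro afterwards. The KO libraries carry the genotype Jmjd1c B KO, the controls are wild type (WT), and the labels give no other allele or agent for either group. The sources used here do not give the driver of the B cell deletion, the exons it removes, the stimulus and its length, the age of the mice, or whether replicates are separate animals. A p-value therefore reflects just the spread between these libraries, which may be technical. The other 4 libraries, germinal center B cells sorted by FACS from the same 2 genotypes, served only to show which genes a sorted B cell population expresses and to test the difference between the 2 KO effects.

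JMJD1C is a Jumonji-domain protein of the family that takes methyl groups off lysine 9 of histone H3, a mark of silent chromatin. A resting B cell that is stimulated grows, raises costimulatory and antigen-presenting molecules, and can switch its heavy chain class or turn into an antibody-secreting plasma cell. Spleen also holds granulocytes, monocytes, macrophages and red cell precursors, and a bead enrichment can carry some of them along, so transcripts of these cells were kept apart from B cell genes throughout.

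Levels are in CPM, a library's counts scaled to a common total. TMM factors were applied to the activated libraries and not to the germinal center levels, so levels of the 2 cell types are not on the same scale. Each log2 fold change is KO minus WT with its standard error (SE), from edgeR's quasi-likelihood test. The threshold was an adjusted p of 0.05, and a gene under it is said to pass. The counting's strand setting is not known here. Exons of Cd274, Cd9, Mpo, Lef1, Csf1r and Kdm3b overlap those of an opposite-strand gene over 10.7% to 24.6% of their length, so their values may include its reads. The 4 libraries held 9219536 to 9513365 counts on genes, so 1 CPM rests on about 9.22 to 9.51 counts. The biological coefficient of variation was 4.11% between the KO and 3.87% between the WT libraries, and the first principal component (59.2% of the variance) separated the genotypes, while the second (20.6%) separated replicate 1 from replicate 2 in both. B cell identity was high in all 4 libraries: Cd79a, a signaling chain of the B cell receptor, was at 633 and 588 CPM in KO and 590.4 and 598 CPM in WT. Signs of division were low. Mki67, a marker of cycling cells, was at 82.4 and 85.1 CPM in KO and 74.0 and 72.2 CPM in WT, against 2606 CPM in WT germinal center B cells. Cd86, a costimulatory ligand raised on activation, was at 53.1 and 53.2 CPM in KO, 45.5 and 40.0 CPM in WT and 145 CPM in WT germinal center B cells.

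Jmjd1c (ENSMUSG00000037876.17, GRCm38 chromosome 10, 67096125 to 67256326, plus strand) was at 143.8 and 161.6 CPM in the KO libraries and at 288.5 and 298 CPM in the WT libraries. Both KO libraries lay below both WT libraries. The fitted change was -0.94 on the log2 scale (SE 0.06, edgeR adjusted p = 1.812e-11), a fall of 47.9%, so the transcript was reduced and not absent. The counts cover the whole gene, and a deletion of a few exons would leave reads elsewhere in it. In germinal center B cells the same fit gave -0.20 (SE 0.04), and the difference between the 2 cell types was -0.74 (SE 0.07, edgeR adjusted p = 1.388e-14). Among the other 12 tested H3K9 demethylases, which include its closest relatives Kdm3a and Kdm3b, 0 passed. Kdm3a was at 337 and 338 CPM in KO against 349 and 345 CPM in WT, and Kdm3b at 263 and 283 CPM against 278 and 298 CPM. None of the 23 tested H3K9 methyltransferase and heterochromatin genes passed either, with log2 fold changes from -0.16 to 0.18. Of 35 tested genes within 5 Mb of Jmjd1c, 2 were higher in KO (Tmem26 at 0.93 and Rhobtb1 at 1.25 log2) and 0 lower. Over all tested genes 4.85% were higher and 1.42% lower, so these counts do not show an effect near the locus.

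Of 14110 genes tested, 885 passed, which is 6.27% of the total. More rose than fell in KO: 684 genes (4.85%) were higher and 201 (1.42%) lower. Changes over 2-fold were mostly rises, 214 against 31. A split by an outside measure separated these rises. Genes at 1 CPM or more in both sorted WT germinal center libraries numbered 12042, of which 418 (3.47%) rose and 176 (1.46%) fell, with 45 and 14 over 2-fold. Genes below that level numbered 2068, of which 266 (12.9%) rose and 25 (1.21%) fell, and they held 79% of the rises over 2-fold. With genes on lists of other cell types also left out, 404 of 11998 genes rose and 176 fell. The number lower in KO was 108 without KO replicate 1 and 134 without WT replicate 2. With DESeq2's Wald test in place of edgeR, 293 genes were higher and 58 lower, so the small changes below are called by edgeR and in part not by DESeq2. The gene lists below were chosen with earlier results of these data known. A list's count set against all tested genes is therefore a description and not an independent test.

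**Figure D1:**
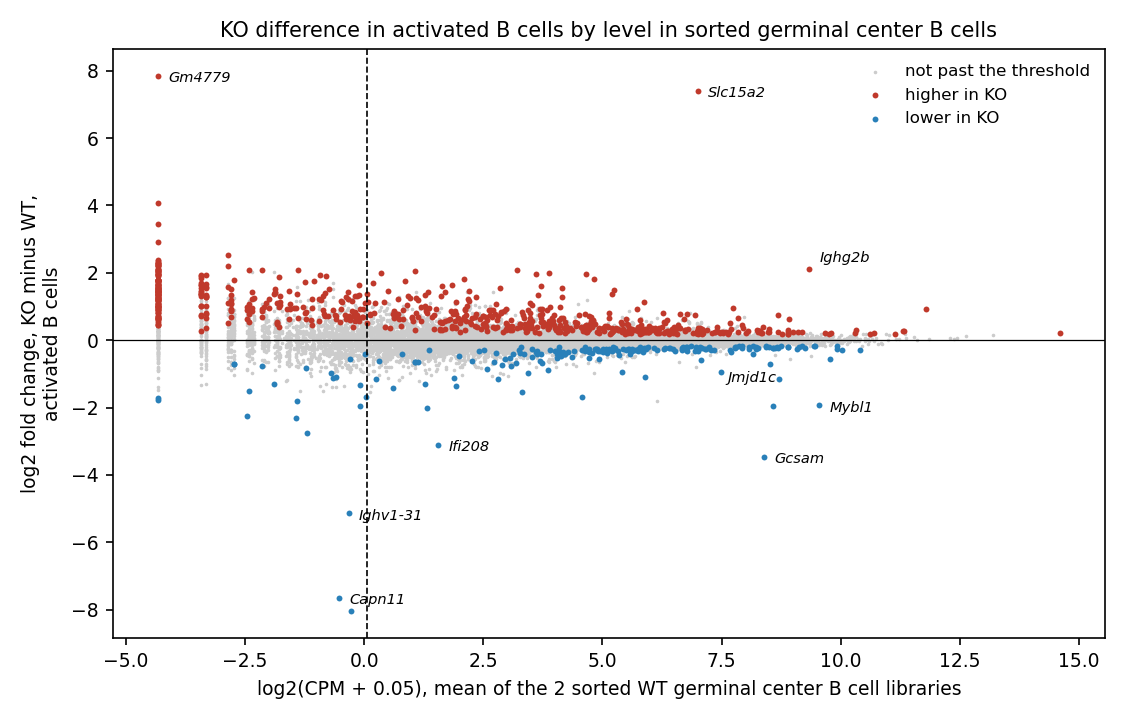
Each point is 1 of the 14110 tested genes. The x axis is its mean level in the 2 sorted WT germinal center libraries (log2 of CPM plus a small constant), the y axis its log2 fold change in activated B cells, and the dashed line marks 1 CPM. Red points (684) rose and blue points (201) fell in KO, and most red points above 1 on the y axis lie left of the line. Fitted values for genes without a count in 1 group, such as Gm4779 and Capn11, depend on the fit and are not measured folds.

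Neutrophil and granulocyte genes gave the most uniform difference. Of 31 tested members 29 rose and 0 fell (4.85% of all tested genes rose), with a median log2 fold change of 1.68 against a median of 0.0006 over all tested genes. The summed level of the list was 3389 and 2839 CPM in KO and 999 and 912 CPM in WT, while the sorted WT germinal center libraries held 21.5 and 23.9 CPM. The groups did not overlap. Ngp, a protein of neutrophil secondary granules, was at 904 and 713 CPM in KO and 220.5 and 195 CPM in WT, a log2 fold change of 1.96 (SE 0.08). S100a9 and S100a8, the subunits of calprotectin, stood at 511 and 435 CPM and at 233 and 203 CPM in KO, against 132 and 113 CPM and 61.9 and 41.1 CPM in WT. The size of the rise varied within the list. Elane, a primary granule protease, rose by 2.24 log2 and Mpo, myeloperoxidase, by 1.51. Ltf, lactoferrin of secondary granules, rose by 1.78 and Mmp8, a neutrophil collagenase, by 1.502. Cxcr2 rose by 1.35, Il1r2 by 0.79 and Csf3r by 0.64. G0s2, on 17 and 16 counts in KO and 5 and 12 in WT, did not pass. Ceacam1, which B cells also express, was at 142 and 137 CPM in KO and 128 and 132 CPM in WT and did not pass.

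Eosinophil, basophil and mast cell genes were higher as a group: 13 of 14 tested members rose and 0 fell, with a median of 1.34. Their sum was 478 and 446 CPM in KO and 198 and 203 CPM in WT. Prg2, the eosinophil major basic protein, was at 119 and 99.0 CPM in KO and 33.5 and 36.2 CPM in WT (log2 1.65, SE 0.09). Epx, eosinophil peroxidase, was at 44.7 and 42.2 CPM in KO and 18.1 and 16.8 CPM in WT. The mast cell proteases Cma1, Mcpt4 and Tpsb2 had 0 counts in all 4 libraries.

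Of 27 tested monocyte and macrophage genes 12 rose and 0 fell, with a median of 0.48 and sums of 2905 and 2671 CPM in KO against 1992 and 1912 CPM in WT. Ly6c2, which plasma cells express too, was at 104 and 80.7 CPM in KO and 24.4 and 24.2 CPM in WT (log2 1.92, SE 0.10). Ccr2, the receptor that brings monocytes out of the marrow, was at 22.4 and 26.5 CPM against 8.26 and 8.57 CPM. Lyz2, myeloid lysozyme, was at 917 and 827 CPM against 480.5 and 436 CPM. Genes that red pulp macrophages of the spleen express were found on both sides of the threshold. Hmox1, which breaks down heme, was at 142 and 129 CPM in KO and 92.2 and 91.4 CPM in WT, Slc40a1, the iron exporter ferroportin, rose by 1.18 and Vcam1, an adhesion molecule, by 0.997, as did the more widely expressed Csf1r (0.50) and Mpeg1 (0.44). Spic, the factor of red pulp macrophages, was at 7.36 and 8.19 CPM in KO and 8.47 and 10.1 CPM in WT, Adgre1 (F4/80) at 99.3 and 94.5 CPM against 83.9 and 84.9 CPM, and neither passed, nor did Cx3cr1, a receptor of patrolling monocytes (17.0 and 20.3 CPM against 14.6 and 13.8 CPM). C1qa, C1qb, C1qc, Cd163, Marco and Timd4 were too low to test, each with at most 13 counts in a library.

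Of 28 tested erythroid genes 16 were higher and 0 lower, with a median of 0.73, and their sum was 1882 and 1699 CPM in KO and 1320 and 1334 CPM in WT. Hbb-bs, adult beta globin, was at 618 and 482 CPM in KO and 346 and 348 CPM in WT (log2 0.66, SE 0.07), and Hba-a1, alpha globin, at 379.8 and 319.5 CPM against 220.1 and 206 CPM. Slc4a1, the red cell anion exchanger, was at 87.9 and 84.6 CPM against 43.7 and 46.6 CPM. Gata1, a factor of erythroid precursors, rose from 0.652 and 0.940 CPM in WT to 2.16 and 2.55 CPM in KO. Globin genes have near-identical copies whose reads the counting could split, so single globin values are uncertain. With DESeq2's Wald test 6 erythroid members passed, and 11 passed when any 1 of the 4 libraries was left out.

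T cell genes had 2 risers of 21 (Tcf7 and Lef1), where 4.85% of all tested genes rose. Their median was 0.51, with sums of 309 and 301 CPM in KO and 265 and 261 CPM in WT. Trbc1, a T cell receptor constant gene, was at 2.16 and 2.98 CPM in KO against 1.41 and 0.836 CPM in WT. The T cell list had 0 risers with the Wald test, and they numbered 1 without KO replicate 1, 0 without WT replicate 1 and 3 without WT replicate 2. Natural killer cell genes had 0 of 6 and platelet genes 0 of 4. Dendritic cell genes had 1 riser of 14, Clec4a2. Of 9 tested progenitor genes 5 rose, with a median of 0.94, among them Kit at 9.74 and 7.87 CPM in KO and 4.35 and 4.49 CPM in WT, and 0 of these passed with the Wald test. Without KO replicate 1, KO replicate 2 or WT replicate 1 the progenitor risers numbered 1, 3 and 2. Stromal and endothelial genes had 1 riser of 4, fibronectin (Fn1), at 65.6 and 60.1 CPM against 30.3 and 32.0 CPM. Across the lists of other cell types 77 of 156 tested genes rose and 0 fell, against 4.85% and 1.42% of all tested genes. Most granulocyte genes were too low to test in germinal center B cells. Among monocyte and erythroid genes there, the KO effect was 7.04 log2 for Ly6c2, 3.54 for Lyz2, 5.31 for Slc4a1 and 4.47 for Hba-a1. These rose from WT levels under 1 CPM, while Bpgm (-0.86) and Tfrc (-0.38) fell. In bulk RNA, more cells of a type and more RNA per cell cannot be told apart. What part transcripts of other cell types have in the B cell results below was not tested.

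**Figure D2:**
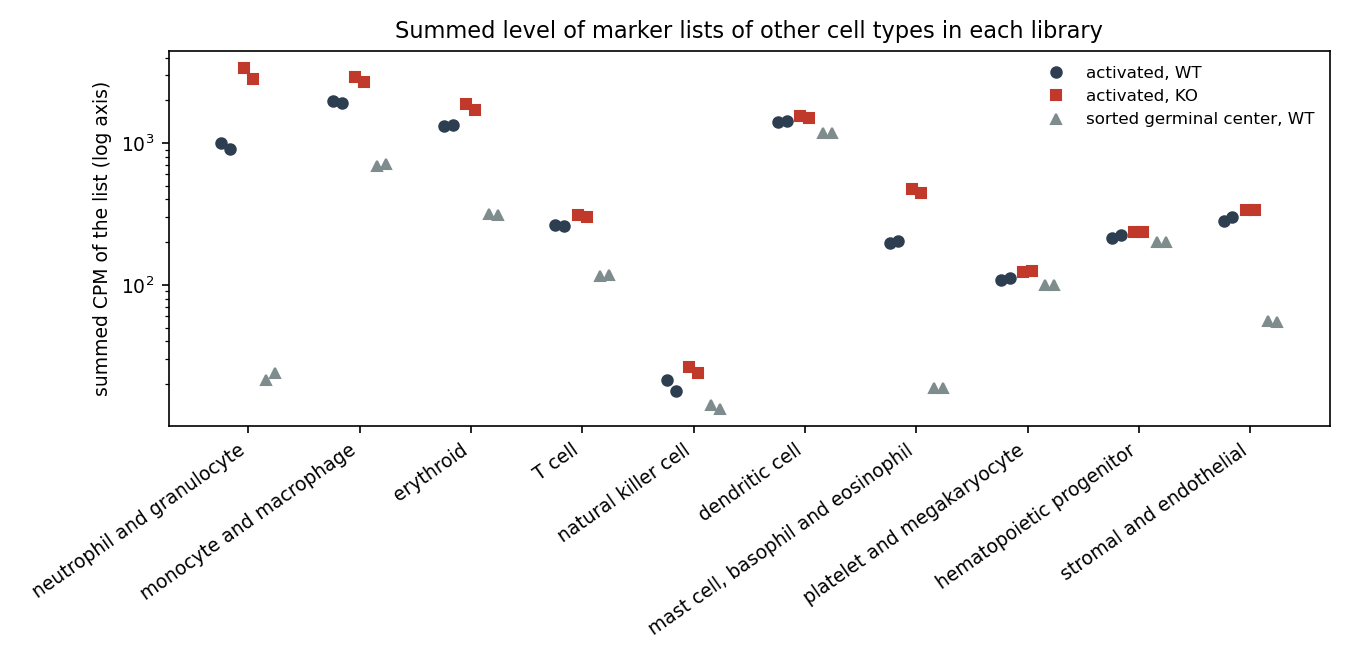
Summed CPM (log axis) of 10 marker lists of other cell types, with 1 point per library for the 2 WT and 2 KO activated B cell libraries and the 2 sorted WT germinal center libraries. The neutrophil sum was 3389 and 2839 CPM in KO against 999 and 912 CPM in WT, the widest gap of the 10 lists, and the dendritic cell, platelet and progenitor sums differed little.

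The B cell side was led by Slc15a2 (ENSMUSG00000022899.9, chromosome 16, 36750177 to 36784962, minus strand), a proton-coupled transporter of short peptides. It was at 108.7 and 112 CPM in KO and at 0.76 and 0.522 CPM in WT, resting on 1005 and 1053 counts against 7 and 5. The log2 fold change was 7.40 (SE 0.15, edgeR adjusted p = 2.587e-21), by far the largest of any gene averaging 50 counts or more. WT germinal center B cells carried the transcript at 128 CPM, and there the KO was lower by 0.60 on the log2 scale, so the low value was that of the WT activated libraries. The difference between the 2 KO effects was 8.01 (SE 0.17, edgeR adjusted p = 4.919e-62).

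With immunoglobulin variable segments and predicted genes left out, the lowest of the genes averaging 50 counts or more was Ifi208 (ENSMUSG00000066677.12, chromosome 1, 173673675 to 173698395, plus strand), a member of the PYHIN cluster of interferon-inducible genes. The variable segment Ighv1-31 fell further, by 5.14 log2, from 79.9 and 76.4 CPM in WT to 1.95 and 2.45 CPM. Ifi208 was at 4.98 and 4.15 CPM in KO and 35.5 and 43.3 CPM in WT (log2 -3.11, SE 0.15, edgeR adjusted p = 8.84e-14). The direction was opposite in germinal center B cells, where it was 1.03 higher in KO, and the difference of effects was -4.14 (SE 0.30). Relatives from the same cluster on the interferon list did not fall: Ifi204 was at 7.68 and 7.66 CPM in KO against 3.48 and 4.07 CPM in WT and rose, and Ifi213 (135 and 145 CPM against 121 and 125 CPM) and Ifi203 (576 and 586 CPM against 554 and 565 CPM) did not pass. PYHIN genes are alike in sequence, so reads may be split between them.

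At this count and under the same exclusions few other genes fell by over 1 log2 unit. Gad1, the enzyme that makes GABA from glutamate, was at 12.4 and 10.4 CPM in KO and 25.2 and 25.5 CPM in WT (log2 -1.15, SE 0.13). Col5a3, a collagen chain, fell by 1.504 and Zfp827, a zinc finger protein, by 1.14. Below 1 log2 unit were Abi2 (-0.90) and Pfn2 (-0.76), both regulators of actin, Rell1 (-0.75), Chst10 (-0.62), Vmn2r97 (-0.69) and Dnah8 (-0.69), and their highest WT level was 38.7 CPM. The call of Pfn2 was lost without KO replicate 1 (edgeR adjusted p = 0.0637) and without WT replicate 2 (0.157). Malat1, an abundant nuclear RNA, was called lower at -0.59, yet its KO libraries differed widely (1434 and 843 CPM, against 1973 and 1449 CPM in WT), and the call was lost with DESeq2's Wald test (DESeq2 adjusted p = 0.924).

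Among genes at 50 CPM or more in WT, 1 fell by over 2-fold, the variable segment Ighv1-31. Cep85, a centrosomal protein, was at 271 and 279.9 CPM in KO against 406 and 399 CPM in WT (log2 -0.55). Pgap1, which remodels GPI anchors, fell by 0.42, Irs2, an insulin receptor substrate, by 0.33, and Satb1, a chromatin organizer, by 0.30. Of 4476 genes at this level, 187 rose and 123 fell, and 7 rose by over 2-fold.

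Among genes that sorted B cells express (at least 5 CPM in both WT germinal center libraries), with variable segments and predicted genes left out, the rises after Slc15a2 and Ighg2b were led by Prkcz. This atypical protein kinase C was at 11.3 and 7.87 CPM in KO and 2.82 and 3.66 CPM in WT (log2 1.55, SE 0.23). Cdk5rap1, a tRNA-modifying enzyme of mitochondria, was at 25.8 and 25.7 CPM against 7.39 and 10.2 CPM (1.54). Lcp2, the adaptor SLP-76 of antigen receptor signaling, rose by 1.14, Cd300lf, an inhibitory receptor, by 1.11 and Cd36, a lipid scavenger receptor of marginal zone B cells and myeloid cells, by 0.997. Lcp2 and Cd300lf are also expressed by myeloid cells, whose markers moved the same way. Ptpn22, a phosphatase that restrains antigen receptor signaling, was at 173 and 177 CPM in KO against 108 and 106 CPM in WT (log2 0.71), and Abca1, a cholesterol exporter, at 160.2 and 169 CPM against 89.0 and 101 CPM (0.79).

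**Figure D3:**
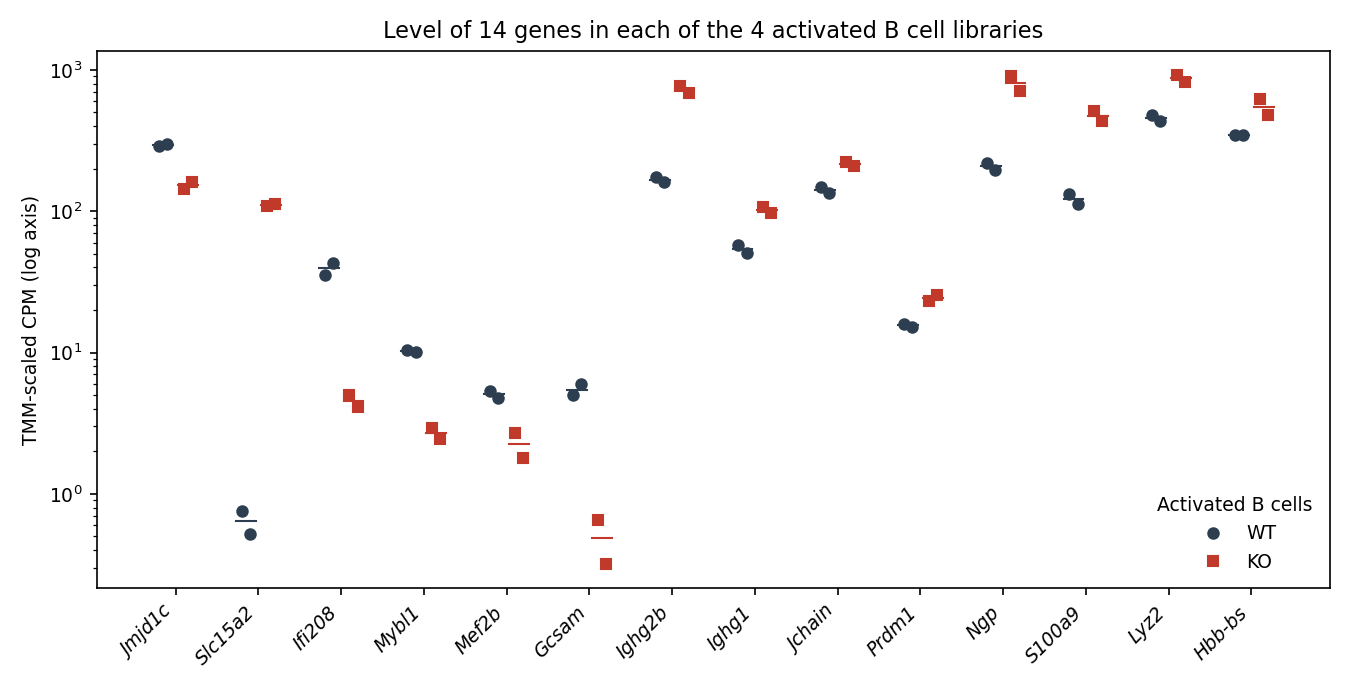
TMM-scaled CPM (log axis) of 14 genes in each activated B cell library, with circles for WT, squares for KO and a bar at the mean of each pair. For every gene drawn, both KO libraries lie on the same side of both WT libraries, which 47.7% of all tested genes show. Slc15a2 goes from under 1 CPM to over 100 CPM, and Ifi208, Mybl1, Mef2b and Gcsam go down.

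Changes among genes of mature B cell identity and receptor signaling were small in size. For comparison, 4.85% of all tested genes rose and 1.42% fell. Of 28 identity genes 4 rose and 1 fell, with a median of 0.01 and a range from -0.19 to 0.37. Cd180, a Toll-like receptor relative of B cells, was at 255 and 264 CPM in KO against 204 and 198 CPM in WT, and its partner Ly86 rose by 0.22. Cr2, the complement receptor CD21, was at 179.5 and 180.4 CPM against 207 and 203 CPM and fell by 0.19. That call was lost with the Wald test and without KO replicate 1, WT replicate 1 or WT replicate 2. Of 32 receptor signaling genes 3 rose and 1 fell, with a range from -0.20 to 0.24. The inhibitory Fc receptor Fcgr2b (0.24), the phosphatase Ptpn6 (0.21) and the Ras activator Rasgrp3 (0.22) were the risers. The fall on this list was lost with the Wald test and without any 1 of the libraries. Without WT replicate 2 the receptor signaling list had 0 risers, and identity risers numbered 2 without KO replicate 1 and 2 without WT replicate 2.

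Of 30 activation markers 4 rose and 1 fell, with a median of 0.20, where 4.85% of all tested genes rose and 1.42% fell. Cd86 rose by 0.31, Cd44, an adhesion receptor, by 0.24 and the chemokine Ccl4 by 0.65, and Cd274, the ligand PD-L1, fell by 0.21. With the Wald test 0 of these passed, and without WT replicate 1 the risers numbered 2. The fall was lost without KO replicate 1 or without WT replicate 2. Among 22 early response genes Egr1 rose (92.0 and 91.2 CPM against 74.5 and 76.2 CPM). This list had 0 risers with the Wald test or without KO replicate 1, and 2 without any other single library. None of 26 NF-kappaB genes passed, with a median of 0.04, and neither did any of 46 S phase or 45 Myc target and ribosome biogenesis genes. The S phase sum was 1904 and 1937 CPM in KO and 1897 and 1871 CPM in WT. Of 44 G2 and M phase genes only Hmmr passed, at 7.14 and 6.27 CPM against 4.45 and 3.45 CPM. That list had 0 risers with the Wald test, without KO replicate 1 or without WT replicate 2, and 5 without KO replicate 2. Of 26 BCL2 family and death genes 0 passed.

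Of the 30 B cell and process lists, germinal center genes had the most falls. Of 29 tested members 7 fell and 1 rose, whereas 1.42% of all tested genes fell, and the median was -0.04. The list was chosen with earlier results of these data known, which may have raised this share. Mybl1 (chromosome 1, 9667415 to 9700209, minus strand), a MYB family transcription factor of germinal center cells, was at 2.92 and 2.45 CPM in KO and 10.4 and 10.1 CPM in WT (log2 -1.93, SE 0.22, edgeR adjusted p = 7.327e-07). Gcsam, a motility regulator, was at 0.649 and 0.319 CPM against 4.996 and 5.96 CPM (-3.47, SE 0.39), resting on 6 and 3 counts in KO. Mef2b, a transcription factor of the MEF2 family, fell by 1.16, from 5.32 and 4.81 CPM in WT to 2.70 and 1.81 CPM.

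These 3 genes were far lower here than in WT germinal center B cells, where they were at 746 CPM (Mybl1), 337 CPM (Gcsam) and 415.5 CPM (Mef2b). The summed level of the list in the KO libraries, 5784 and 5853 CPM, lay close to 5801 and 5867 CPM in WT. Other germinal center genes did not pass: Bcl6, the master repressor of the program, was at 129.7 and 139 CPM in KO and 118 and 121 CPM in WT, and S1pr2, a confinement receptor, at 5.41 and 4.57 CPM against 6.08 and 7.42 CPM. Abundant members fell slightly, Mef2c by 0.24, Gpr183, a migration receptor, by 0.27 and Neil1, a DNA glycosylase, by 0.29. Lmo2, a transcriptional cofactor, rose by 0.45. In germinal center B cells the KO lowered Mybl1 by 1.55 and Mef2b by 0.68, and the difference of effects did not pass for either (edgeR adjusted p = 0.1877 and 0.1569). It did pass for Gcsam (-1.71, SE 0.40), which fell further in activated cells. The Wald test called 4 of the 7 falls. Of 26 class switch genes 0 rose and 2 fell. These were Prkdc, a kinase of end joining (-0.31), and the member with the list's lowest log2 fold change (-1.95).

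Several immunoglobulin constant genes and plasma cell genes rose. Of 13 constant genes, counting the joining chain, 7 rose and 0 fell, with a median of 0.27, against 4.85% and 1.42% of all tested genes. Ighg2b (ENSMUSG00000076613.4, chromosome 12, 113302965 to 113307933, minus strand), the IgG2b heavy chain, was at 771 and 687.5 CPM in KO and 175 and 159.7 CPM in WT (log2 2.12, SE 0.06, edgeR adjusted p = 4.236e-18). Ighg1 was at 107 and 97.1 CPM against 57.7 and 50.5 CPM (0.92, SE 0.08), and Ighe at 5.19 and 5.53 CPM against 2.06 and 0.627 CPM. Not every switched class followed: Ighg3 was at 37.0 and 30.3 CPM against 28.8 and 26.1 CPM, Ighg2c at 76.7 and 68.8 CPM against 63.4 and 60.2 CPM, Igha at 289.7 and 258 CPM against 261 and 258 CPM, and none of these passed. Of the unswitched chains Ighm rose by 0.19, while Ighd overlapped between the groups, at 3781 and 3707 CPM against 3691 and 3755 CPM. In germinal center B cells the KO lowered Ighg2b by 0.62 and Ighg1 by 0.29, and the differences of effects were 2.75 (SE 0.07) and 1.21 (SE 0.08). Constant gene risers numbered 5 at the fewest, without KO replicate 1 or without WT replicate 2.

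Of 26 plasma cell genes 8 rose and 1 fell, with a median of 0.16, where 4.85% of all tested genes rose and 1.42% fell. Prdm1, which encodes the plasma cell factor BLIMP-1, was at 23.04 and 25.5 CPM in KO and 15.97 and 15.2 CPM in WT (log2 0.64, SE 0.12). Xbp1, a factor of the secretory program, was at 116 and 116 CPM against 91.9 and 93.5 CPM (0.32), Jchain at 223 and 209.9 CPM against 148 and 134 CPM (0.62), and Tent5c, a poly(A) polymerase of plasma cells, rose by 0.63. Sdc1, the plasma cell surface marker CD138, went the other way, at 35.4 and 33.3 CPM against 43.6 and 40.3 CPM (-0.29, a call the Wald test did not make and that was lost without KO replicate 1 or WT replicate 1), and Irf4 was at 223.5 and 231 CPM against 237 and 231 CPM. Ly6c2 and Ly6a are on the list as well and are shared with monocytes and activated lymphocytes. The largest riser of the list, Ly6c2, is therefore also counted among the monocyte genes.

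Of 44 tested interferon-stimulated genes 19 rose and 0 fell, against 4.85% of all tested genes that rose. This list too was chosen with earlier results of these data known. Ifi208, which fell, is not on this list, although its PYHIN relatives Ifi203, Ifi204 and Ifi213 are. In 41 of the 44 both KO libraries lay above both WT libraries, against 24.5% of all tested genes, and the median was 0.35. Ifit3, an antiviral RNA-binding protein, was at 16.8 and 13.7 CPM in KO and 6.30 and 6.69 CPM in WT (log2 1.23, SE 0.17). Oasl2, of the oligoadenylate synthetase family, was at 33.6 and 32.4 CPM against 15.6 and 16.3 CPM (1.048, SE 0.11). Irf7, the interferon regulatory factor that amplifies the response, was at 40.9 and 40.2 CPM against 26.4 and 24.97 CPM (0.66). Ifi27l2a rose by 0.61, Oas2 by 0.71 and the nucleic acid sensor Zbp1 by 0.56. Of the 19 risers, 14 were at 1 CPM or more in both sorted WT germinal center libraries. With the Wald test 10 passed. Against the KO effect in germinal center B cells, 39 of the 44 passed the test of the difference, as did 4685 of 14992 genes tested for it (31.2%). There Ifit3 was 3.01 and Oas2 4.18 log2 higher in KO, and the differences of effects, activated minus germinal center, were -1.78 (SE 0.32) and -3.47 (SE 0.25).

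Interferon-stimulated genes are known for a shared promoter element, bound by the STAT and IRF9 complex. The upstream windows of 3 risers are shown for that element: Ifit3, Rsad2 (0.83 log2) and Trim30a (0.30 log2). They were named after their values were seen, as the risers of lowest p whose window holds the motif. Their matches were thus fixed by the choice and are no finding. Trim30a has 2 windows, and the one with most matches is shown. Slc15a2 is shown because it had the largest rise. The motif searched on both strands was GAAANNGAAA, whose reverse complement is TTTCNNTTTC, and capitals mark a match, which begins at -156 and -122 from the start of transcription for Ifit3, at -120 for Rsad2 and at -36 for Trim30a. Overlap with other motifs was not searched. Each run is the 250 bases before the start, 5′ to 3′ on the gene's strand, from RefSeq (GRCm38.p6).
Ifit3, chr19:34583279-34583528, plus strand: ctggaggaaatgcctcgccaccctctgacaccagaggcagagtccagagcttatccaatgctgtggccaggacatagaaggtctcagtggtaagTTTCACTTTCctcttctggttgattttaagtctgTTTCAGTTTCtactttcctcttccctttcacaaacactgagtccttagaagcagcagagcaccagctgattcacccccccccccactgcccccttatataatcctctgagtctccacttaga
Rsad2, chr12:26456453-26456702, minus strand: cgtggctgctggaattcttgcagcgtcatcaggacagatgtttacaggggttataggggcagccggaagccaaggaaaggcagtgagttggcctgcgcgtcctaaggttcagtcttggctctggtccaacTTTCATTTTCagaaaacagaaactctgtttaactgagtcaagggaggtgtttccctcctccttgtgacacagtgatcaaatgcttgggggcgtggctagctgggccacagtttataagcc
Trim30a, chr7:104465194-104465443, minus strand: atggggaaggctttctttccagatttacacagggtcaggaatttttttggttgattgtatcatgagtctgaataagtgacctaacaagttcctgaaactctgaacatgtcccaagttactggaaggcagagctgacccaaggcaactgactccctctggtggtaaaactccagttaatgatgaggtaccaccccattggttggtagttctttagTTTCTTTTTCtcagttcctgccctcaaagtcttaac
Slc15a2, chr16:36784963-36785212, minus strand: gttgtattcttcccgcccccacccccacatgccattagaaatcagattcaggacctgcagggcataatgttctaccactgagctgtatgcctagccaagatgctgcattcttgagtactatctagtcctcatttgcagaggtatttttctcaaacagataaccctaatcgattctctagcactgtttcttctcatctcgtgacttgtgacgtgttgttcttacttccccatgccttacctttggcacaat
Of 32 tested interferon genes with a window, 19 held the motif (59.4%), against 330 of 9832 tested genes (3.36%) and 978 of all 32851 windows (2.98%). Windows of genes that rose held it in 9 of 13 cases (69.2%), and those of members that did not pass in 10 of 19 (52.6%). The Slc15a2 window held no match.

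Of 20 MHC class I genes 9 rose and 0 fell, with a median of 0.18 and a highest value of 0.34. Over all tested genes 4.85% rose and 1.42% fell. B2m, the light chain shared by class I molecules, was at 2181 and 2056 CPM in KO and 1844 and 1626 CPM in WT (log2 0.29, SE 0.06), and Tap1, the peptide transporter, at 360.4 and 348 CPM against 291 and 297 CPM (0.27). Of 17 MHC class II genes 6 rose and 0 fell, with a median of 0.16 and a lowest value of -0.25. H2-Aa, an alpha chain of I-A, was at 2564 and 2351 CPM against 2121 and 1868 CPM (0.30, SE 0.06). Single libraries weighed on these calls: class II risers numbered 1 without KO replicate 1 and 1 without WT replicate 2, and class I risers 5 and 4. With the Wald test 1 class II and 7 class I genes passed. Of 25 Toll-like receptor pathway genes 6 rose and 0 fell, among them Tlr7, the endosomal RNA sensor, at 61.2 and 60.8 CPM against 41.2 and 45.6 CPM (0.49). With the Wald test 3 of these passed, and 4 passed without KO replicate 1, without WT replicate 1 or without WT replicate 2.

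Genes of marginal zone and B-1 cells, the innate-like B cells of spleen and body cavities, had 8 risers and 1 fall among 24, with a median of 0.24. Over all tested genes 4.85% rose and 1.42% fell. Cd9, a tetraspanin, was at 64.0 and 61.8 CPM in KO and 39.2 and 38.8 CPM in WT (log2 0.69, SE 0.08), Fcrl5, a receptor of innate-like B cells, at 35.2 and 30.8 CPM against 20.4 and 18.2 CPM (0.77), and Plac8 at 303 and 277 CPM against 253 and 210.5 CPM (0.32). Itgam, the integrin CD11b, rose by 1.22 but is also a myeloid marker, and the only fall was Cr2. With the Wald test 4 of the risers passed, and 5 passed without KO replicate 1. Among memory and recirculation genes 4 of 25 rose and 1 fell, with Ccr6 at 86.5 and 92.4 CPM against 68.4 and 69.8 CPM (0.37). The memory risers numbered 2 without KO replicate 1, without KO replicate 2 or without WT replicate 1. Of 30 cytokine receptor and JAK-STAT genes 4 rose and 1 fell: Il5ra, the IL-5 receptor of B-1 cells and eosinophils, was at 88.5 and 89.0 CPM against 48.9 and 43.9 CPM (0.94), and Il9r fell by 0.35.

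S100, annexin and galectin genes had 12 risers of 23 and 0 falls, with a median of 0.30, where 4.85% of all tested genes rose and 1.42% fell. S100a8, S100a9 and Anxa1 (97.9 and 85.8 CPM in KO, 36.5 and 31.0 CPM in WT) led and are abundant in granulocytes. Anxa2, at 52.3 and 50.2 CPM against 34.97 and 29.5 CPM (0.67), and Vim, vimentin (0.29), are also expressed by the sorted B cells. Of 33 cholesterol and fatty acid synthesis genes 6 rose and 0 fell, by 0.29 to 0.55 log2, led by Scd2, Msmo1 and Idi1, the last at 21.5 and 21.1 CPM against 15.2 and 13.8 CPM. Of 45 endoplasmic reticulum genes 7 rose, with the chaperone Hspa5 at 277 and 273 CPM against 244 and 220.0 CPM (0.25). Cholesterol genes had 0 and endoplasmic reticulum genes 1 riser with the Wald test, and the latter had 2 without WT replicate 2. Of 35 glycolysis and hypoxia genes 3 rose, Slc16a3, Pgk1 and Aldoc, against 4.85% of all tested genes. The number of risers on this list changed when 1 library was left out. Of 29 migration and adhesion genes 5 rose, with Itgb2, an integrin beta chain shared with myeloid cells, at 250.2 and 242 CPM against 192 and 198 CPM, and 1 fell, and 3 rose without KO replicate 1. Of 22 p53 targets Plk2, a kinase, fell by 0.55 and Perp rose on 23 and 20 counts against 4 and 5, and each call was lost without 1 library (WT replicate 2 and KO replicate 1).

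None of 51 nuclear-encoded respiratory chain genes passed. Of 10 tested mitochondrially encoded genes 2 rose, mt-Nd4 (0.27) and mt-Co1 (0.21), where 4.85% of all tested genes rose. Neither call held without WT replicate 2. The mitochondrially encoded genes took 2.66% and 2.54% of counts in KO against 2.42% and 2.26% in WT.

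**Figure D4:**
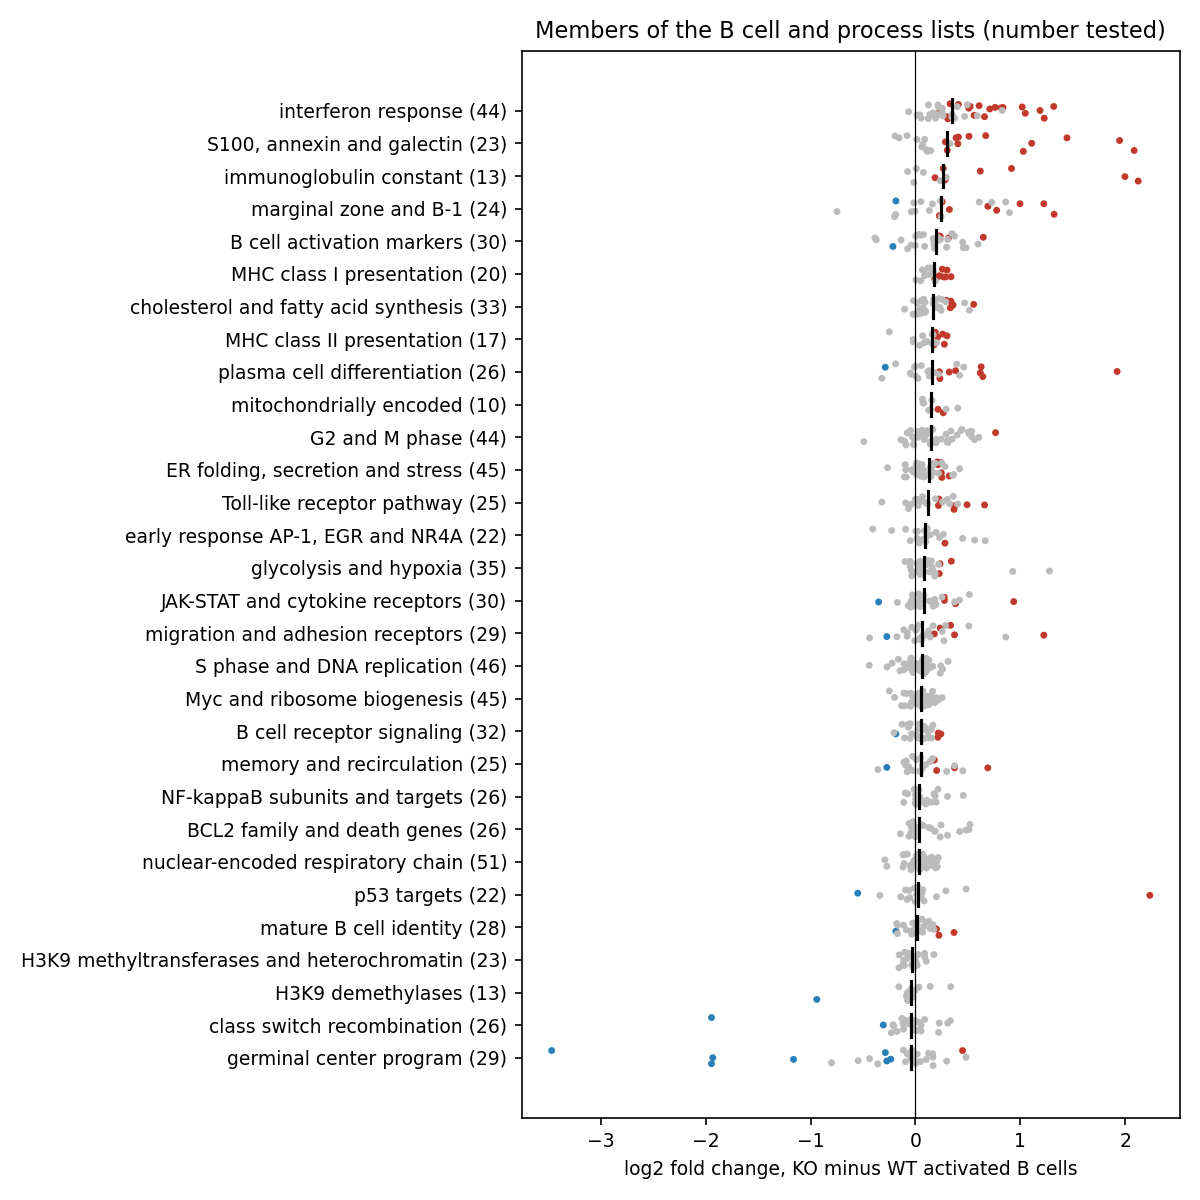
Log2 fold changes of the tested members of the 30 B cell and process lists, 1 point per gene, with the number tested in brackets and a black bar at each median. Red points rose, blue points fell and grey points did not pass. The interferon list has the highest median (0.35) and the germinal center list reaches lowest, to -3.47.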

How the data were processed

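Total RNA of 8 libraries was sequenced, 2 for each genotype in activated and in germinal center B cells. The authors deposited raw read counts per gene, 1 file per library, with Ensembl IDs and symbols, per the file headers. Trimmomatic, DESeq2 and mm10 are named in the submitters' processing notes, without versions; the aligner, counter and strand setting are not given in the deposited labels. From the counts, the 5 summary rows were left out, among them reads assigned to no gene (52.9% to 53.9% in the activated libraries). Genes were then tested on the 4 activated libraries alone with edgeR 4.0.16 (R 4.3.3): filterByExpr, TMM, quasi-likelihood F tests with p-values adjusted by Benjamini-Hochberg over all tested genes, with SE taken as the absolute log2 fold change over the root of F. The difference between KO effects came from 1 fit over all 8 libraries, and each germinal center effect from the 4 germinal center libraries. Of 55401 IDs, 54349 matched GENCODE M21 (GRCm38), the source of coordinates. Alternatives used limma 3.58.1 and DESeq2 1.42.0, and the steps were tested on simulated data. At this depth 3 counts were taken as the floor against a group at 0.

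The genes named were Jmjd1c, the 10 highest and 10 lowest fold changes among passing genes (mean count of at least 50, groups not overlapping, no pseudogenes, predicted genes or variable segments), the same among genes at 5 CPM or more in both sorted WT libraries, the 10 of lowest p per direction at 50 CPM or more in WT, up to 6 of lowest p per list, and any member of a short, granulocyte, monocyte or erythroid list. Other genes named (such as Cd79a, Mki67, Bcl6, S1pr2, Mef2b, Neil1, Sdc1, Irf4, Vim, Ifi203, Ifi204, Ifi213, Rsad2 and Trim30a) were chosen after their values were seen. Some genes that the rule names are not reported here. The members and the 40 gene lists (996 of 1000 symbols matched) were chosen with earlier results of these data known. Replicate numbers were not taken to pair libraries, since replicate 1 minus replicate 2 correlated at 0.015 between KO and WT across genes and the labels name no shared batch. The second principal component (20.6%) nevertheless separated replicate 1 (12.6 in KO, 10.8 in WT) from replicate 2 (-14.3 and -9.1), and the fit with the replicate number as a block is given among the alternatives.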

Additional observations from a re-analysis of the deposited data

Results flagged for a closer look

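The KO effect was compared between activated and germinal center B cells for Jmjd1c and the 19 genes ranked by fold, and the difference (activated minus germinal center, from edgeR's interaction term) passed for 11 of 20. For these the KO effect differed by -0.74 log2 (SE 0.07) for Jmjd1c, 8.01 (SE 0.17) for Slc15a2, 2.75 (SE 0.07) for Ighg2b and -4.14 (SE 0.30) for Ifi208. Slc15a2, Ighg2b and Ifi208 had effects of opposite sign in the 2 cell types. Among the genes that fell in activated cells the differences were -1.72 for Gad1, -0.84 for Zfp827, -0.96 for Rell1 and -0.71 for Dnah8. Abi2 and Pfn2 fell further in germinal center B cells, with differences of 0.94 and 0.89. The granule peptide gene Camp differed by 6.08 (SE 2.0), a fitted value that is no measured fold, since only 1 germinal center library held counts of it. Across all genes tested, 31.2% passed for this difference. Fcnb, Elane, S100a8, Chil3, Ctsg, Ifitm6 and Ngp did not pass, but they were at 0 CPM in both WT germinal center libraries. The SE of their differences was 1.38 or more, so a like effect in both cell types was not shown.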

How the results depend on the processing

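Jmjd1c stayed lower in KO and past the threshold in each alternative run, from -0.859 to -1.031 log2, and 0 results reversed. The 885 passing genes became 351 with DESeq2's Wald test (293 higher, 58 lower), 465 with no filter on low counts (397 and 68), and 245 when only changes over 2-fold were kept (214 and 31), and 418 genes were higher among those the sorted WT libraries express. A single fit over all 8 libraries gave 408 lower. With the replicate number as a block 1388 genes passed, 435 of them lower, and all 885 were among them. The labels do not say that replicate numbers pair the libraries. Rises made up 77.3% of the calls, 68.7% with the block, 67.3% over all 8 libraries, 83.5% with the Wald test and 85.4% without the filter. Leaving out 1 library gave 601 to 951 genes, 493 to 676 higher and 108 to 275 lower, the lone library being assumed to vary like the other group. The 4685 genes that differed between cell types became 3047 with the Wald test and 3851 to 4493 with 1 library left out. Of the named genes' alternatives 532 kept direction and threshold and 8 lost the threshold, all for Abi2, Pfn2, Vmn2r97 and Malat1. List counts stayed within 1.5 times in 780 alternatives and moved further in 180. Counts of 0 in both runs were put among the 780, so these include lists with no call to lose. The causes were not tested. At about 9 counts per CPM, genes near 1 CPM, such as Gcsam in KO, rest on few reads.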

Other observations

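Of 211 tested immunoglobulin variable segments, 50 rose (23.7%) and 8 fell (3.79%), where 4.85% of all tested genes rose and 1.42% fell. Most of their changes were small, with 6 rises and 3 falls over 2-fold. Ighv1-31, a heavy chain variable segment, held 18 and 23 counts in KO and 736 and 731 counts in WT. Ighv5-16 went the other way, with 1216 and 1189 counts in KO and 350 and 339 in WT, and Igkv5-39, a kappa light chain segment, held 2208 and 1894 counts against 555 and 615. Variable segments are alike in sequence, so reads may be split between them. These segments were named after their values were seen.

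A few genes had no count in 1 genotype. Gm4779 held 21 and 36 counts in KO and 0 in both WT libraries, at least 19.1-fold higher against a floor of 3 counts over the group. Capn11, a calpain protease, held 0 counts in both KO libraries and 19 and 31 in WT, at least 16.6-fold lower. Gm16867 held 0 counts in KO and 28 and 38 in WT, at least 21.8-fold lower, and 35.9% of its exon length overlaps a gene on the opposite strand.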
